A study of Mus musculus with 4 samples.

Results

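A set of 8 genes of the mouse kidney arrays carried much less signal after vancomycin than after saline at each of 2 injection times: Npy, Synpr, Tekt1, Ces1g, Slco1b2, Slc37a1, Il18bp and Klhl6. They were picked by name for large falls at both times, from all array entries that carry those gene names, so their vancomycin differences are the values that chose them and are given as a description with no test. The 8 genes had 13 probes, out of 37072 gene entries and 56605 probes in all, and 24638 of those genes passed a filter on dim signal. All 8 genes passed it, through 10 of the 13 probes, and 3 probes were dim, meaning not well above background, on every array.

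Kidney RNA of ICR mice, an outbred strain, was measured on 4 one-colour expression arrays. The groups were vancomycin injected at ZT2, saline injected at ZT2, vancomycin injected at ZT14 and saline injected at ZT14, where ZT is zeitgeber time, counted in hours from lights on. Every kidney was taken 1 day after the injection. Each group had 1 array, so there were no replicates. The labels give no dose, sex or age, and they do not say whether a sample came from 1 animal or from a pool. Vancomycin is a glycopeptide antibiotic that can injure the kidney tubule. Both ZT14 arrays lay on slide 2 and both ZT2 arrays on slide 1, and on each slide vancomycin RNA lay at position 1.2 and saline RNA at position 1.1. Slide thus cannot be told apart from injection time, nor array position from treatment. Of the spots, 60.59% to 64.75% were well above background and 0 were saturated. All 14 kidney nephron markers were well above background on all 4 arrays. In whole-tissue RNA, fewer cells of a type and less RNA per cell cannot be told apart.

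The 8 genes come from unrelated systems. Npy encodes neuropeptide Y, a vasoconstrictor that sympathetic nerves, including those of the kidney, store with noradrenaline, and Synpr encodes synaptoporin, a membrane protein of synaptic vesicles related to synaptophysin. Tekt1 encodes a tektin, a filament protein built into the microtubules of motile cilia and sperm tails. Ces1g and Slco1b2 are best known from the liver, where the first hydrolyses ester bonds in lipids and drugs and the second takes up bile acids and drugs, while Slc37a1 encodes a sugar phosphate exchanger of the endoplasmic reticulum membrane. Il18bp encodes a secreted decoy that binds the cytokine interleukin-18, and Klhl6 encodes a BTB-kelch protein of lymphocytes that is known from B cell receptor signalling.

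Values below are processed signals, which are intensities after the scanner software took off background. Changes are vancomycin minus saline in log2 units after each array was centred on its 75th percentile, so they can differ slightly from the ratio of the printed signals. A gene was counted as lower when the change was 2-fold or more. All 8 genes were lower at ZT2, where 3.73% of 23082 genes were, and all 8 were lower at ZT14, where 2.79% of 23975 genes were. All 8 were lower at both times, against 254 of 22419 genes, or 1.13%. Genes that were 2-fold higher made up 2.06% at ZT2 and 1.61% at ZT14. These shares are the background to genes that were chosen on this contrast, and nothing is read from the difference. The median change of the 8 genes was -3.04 at ZT2 and -2.85 at ZT14, and that of all genes was 0.02 at both times. Ordered by the smaller fall of the 2 times, the 8 genes held ranks 1, 5, 8, 11, 16, 27, 45 and 54 among 22419 genes. The choice followed no threshold: Tgfb2, at rank 4 with -3.41 at ZT2 and -4.43 at ZT14, is not among them.

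**Figure D1:**
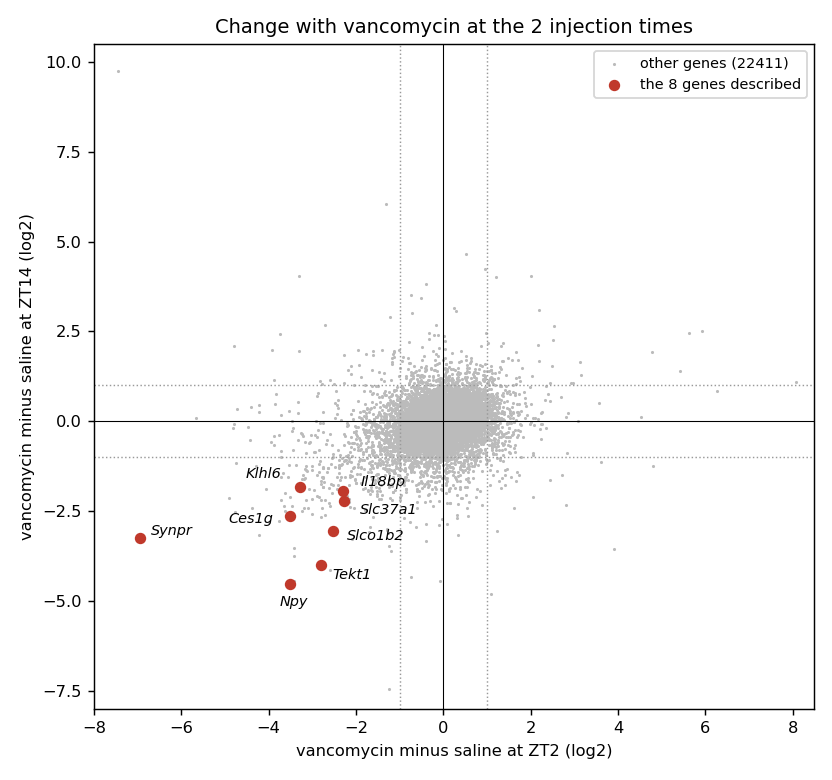
Change with vancomycin at ZT2 (x axis) and at ZT14 (y axis) for each gene, as vancomycin minus saline in log2 units, with 1 array per group. Genes dim on 1 array of a pair are drawn at their bound, dotted lines mark 2-fold, and the 8 genes described (red) all lie in the lower left field, with Synpr farthest to the left and Npy lowest.

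Npy had a signal of 97.8 after vancomycin at ZT2, against 1258 after saline at ZT2. The ZT14 arrays gave Npy signals of 84.8 after vancomycin, against 2049.96 after saline. Both vancomycin arrays were low and both saline arrays high, and the groups did not overlap. Such separation, here and for the genes below, follows largely from choosing genes with large falls. Its share over all genes was not counted. The change was -3.51 at ZT2 and -4.53 at ZT14, or 11.4-fold and 23.1-fold lower. Npy signal after vancomycin was thus 8.77% of the saline level at ZT2 and 4.33% at ZT14, after centring. It ranked first of all genes by its smaller fall. A single probe reports Npy, at chr6:49773743-49777505 on the plus strand of mm9. Its ends lie 3763 bases apart in the genome although it has 60 bases, so it crosses an intron and reads spliced RNA. The probe is printed because all Npy values rest on it, as deposited in the array files.
Npy: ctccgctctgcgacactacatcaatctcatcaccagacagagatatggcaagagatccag

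Npy belongs to a small family of peptides that act through shared Y receptors and are trimmed by the peptidase Dpp4. Of 9 other family genes, 4 were measured and 0 of them were 2-fold lower or higher at either time. The Y1 receptor gene Npy1r, which mediates constriction of renal vessels by the peptide, had a change of -0.20 at ZT2 and -0.27 at ZT14. Npy4r, a receptor for pancreatic polypeptide, had -0.14 and 0.23, and Dpp4 had 0.03 and 0.30. The ligand gene was thus 2-fold lower, and each receptor gene that could be measured differed by under 2-fold.

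Synpr had the widest gap at ZT2. Its main probe had a signal of 19.8 after vancomycin at ZT2, against 2736 after saline at ZT2. At ZT14 it had 126 after vancomycin, against 1258 after saline. The vancomycin arrays were low and the saline arrays high at both times, without overlap, but the levels differed between times within each treatment as well. The change was -6.94 at ZT2 and -3.26 at ZT14, or 122-fold and 9.57-fold lower. At ZT2 the vancomycin signal was 0.817% of the saline level, and at ZT14 it was 10.4%. The ZT2 vancomycin value lay close to the dim end of its array, which began at a signal of 11.04, the lowest that was well above background there.

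Synpr has 3 probes, and they did not agree in level. The main probe reads the transcript NM_001163032 at chr14:14447766-14447825 on the plus strand of mm9. The probe for ENSMUST00000145700, at chr14:14399107-14399166, had signals of 2.74 after vancomycin and 51.8 after saline at ZT2, and 3.16 after vancomycin and 15.3 after saline at ZT14. This is an on-off pattern: the probe was well above background on both saline arrays and on neither vancomycin array. Set against the lowest signal well above background, the fall was at least 4.16-fold at ZT2 and at least 1.08-fold at ZT14. The probe passed the filter through saline alone, so that it was lower with vancomycin adds no support, and 458 of 37503 probes, or 1.22%, had the same pattern. The third probe, for ENSMUST00000147677 at chr14:14442597-14442656, was dim on all 4 arrays, with signals of 2.35 and 2.87 after vancomycin and 2.24 and 2.43 after saline at ZT2 and ZT14. The first 30 bases of the 3 probes are printed because they read different places in the locus.
Synpr NM_001163032: ctgtgatgttgaaagcagtttagcacaaaa
Synpr ENSMUST00000145700: catcagctttacaaaatcggatacccatct
Synpr ENSMUST00000147677: ctgactaaagcaaggtttaaagtgttctgt

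Other genes of synaptic vesicles and dense-core granules were close to their saline level, apart from a few. Of 26 such genes 20 were measured, 17 had a change at both times, and 0 of these were 2-fold lower at both. The median change of the list was 0.13 at ZT2 and 0.21 at ZT14. Sypl, a synaptophysin-like protein found outside neurons, had -0.19 and -0.09. Snap25, a membrane fusion protein, had 0.10 and 0.21, and Slc18a1, the vesicular monoamine transporter of chromaffin cells, had -0.61 and -0.26. The genes of the granule proteins Chga and Chgb were higher with vancomycin. Chga was at least 49.3-fold higher with vancomycin at ZT2 and at least 5.46-fold at ZT14, and Chgb at least 60.9-fold and at least 5.72-fold, since both were well above background on the vancomycin arrays and on neither saline array. Probes with that pattern made up 0.208% of 37503 probes that passed the filter.

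Npy and the granule genes are also made by sympathetic neurons and adrenal chromaffin cells, so markers of those cells were read beside them. Of 16 markers 11 were measured, and Phox2a, Slc6a2, Hand2 and Prph were among those dim on all 4 arrays. Their summed signal, in units of the 75th percentile of each array, was 46.2 after vancomycin and 36.8 after saline at ZT2, and 25.9 after vancomycin and 28.3 after saline at ZT14. Most of that sum came from Ddc, Slc18a1 and Gata3. At ZT2 Ddc had 20.8 after vancomycin and 9.18 after saline. Slc18a1 had 12.4 after vancomycin and 18.8 after saline there, and Gata3 had 8.42 and 7.39. None of the 11 was 2-fold lower at both times. The 2 that were 2-fold higher at both, against 0.281% of all genes, were Chga and Chgb, already given above. Of 8 measured adrenal cortex markers, with Cyp11b2 and Mc2r dim on all 4 arrays, 4 were 2-fold higher at both times, against 0.281% of all genes, and their median change was 2.83 (ZT2) and 0.87 (ZT14). Cyp21a1, a steroid hydroxylase named after its values were seen, was 42.6-fold higher at ZT2 and 2.63-fold higher at ZT14. The summed signal was 53.4 after vancomycin and 46.6 after saline at ZT2, and 62.3 after vancomycin and 61.8 after saline at ZT14. Most of that sum was Fdx1, a ferredoxin that other tissues express too, with 44.6 after vancomycin and 45.0 after saline at ZT2. The part of such cells in the Npy and Synpr values was not tested.

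**Figure D2:**
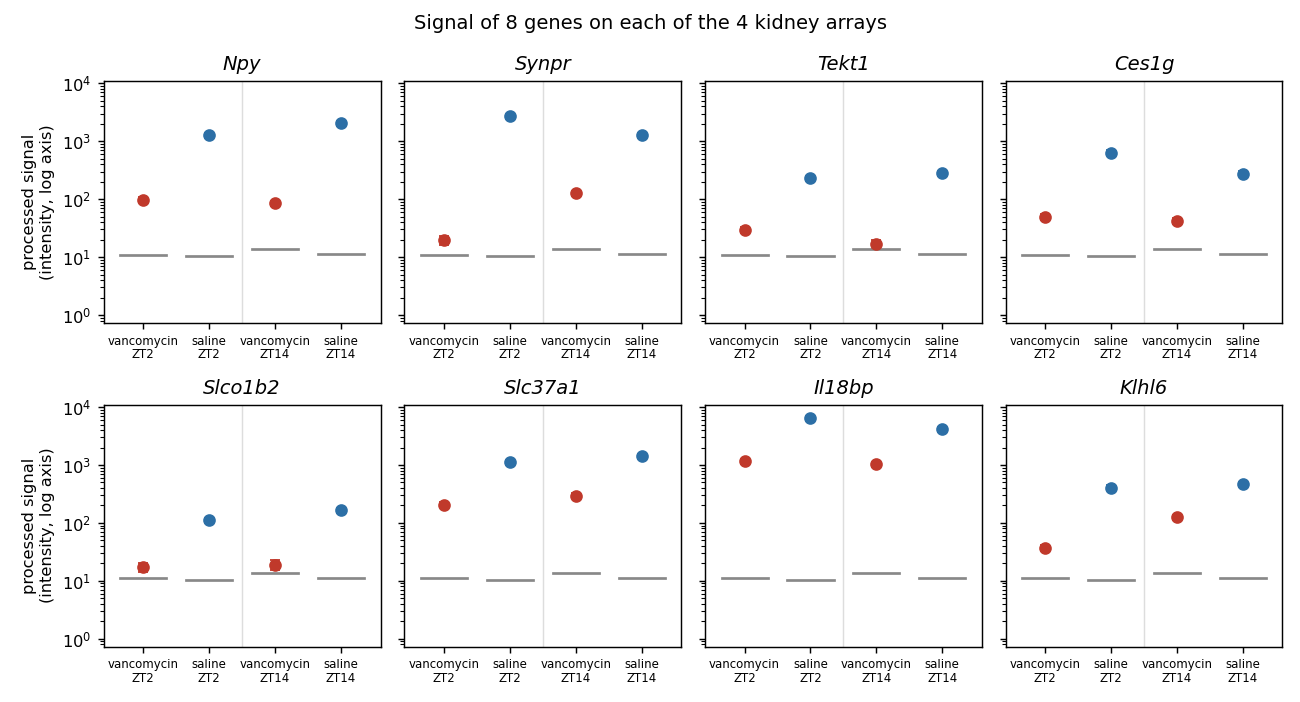
Processed signal of each of the 8 genes on each array (log axis), from the probe that represents the gene, with vancomycin in red and saline in blue. Bars are the scanner software's own signal error and grey ticks each array's lowest signal that was well above background. Every vancomycin point lies below both saline points of its gene, which follows largely from choosing genes with large falls.

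Tekt1 had a signal of 29.55 after vancomycin at ZT2, against 231 after saline at ZT2. In the ZT14 pair, Tekt1 had 16.75 after vancomycin, against 279 after saline. The saline arrays were close to each other and both high, and the vancomycin arrays were both low, without overlap. The change was -2.79 at ZT2 and -3.99 at ZT14, or 6.92-fold and 15.9-fold lower. The ZT14 vancomycin value stood just over the lowest signal well above background on its array, 13.54. The only Tekt1 probe lies at chr11:72158231-72158290 on the minus strand of mm9, so no other probe could be set beside it.

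A Tekt1 promoter in RefSeq lies at chr11:72361833-72362132 on the minus strand of GRCm38.p6, from 250 bases before to 50 after the start site. It is printed because it holds part of the X-box that RFX factors of ciliated cells are known to bind. The letters searched were GTTGCCAT on both strands, in capitals here. They start 15 bases before the start site. Of 32851 promoters 1.35% hold these letters, and of 10 promoters of the 8 genes 1 does. A second Tekt1 promoter, at chr11:72361247-72361546, does not hold them.
Tekt1: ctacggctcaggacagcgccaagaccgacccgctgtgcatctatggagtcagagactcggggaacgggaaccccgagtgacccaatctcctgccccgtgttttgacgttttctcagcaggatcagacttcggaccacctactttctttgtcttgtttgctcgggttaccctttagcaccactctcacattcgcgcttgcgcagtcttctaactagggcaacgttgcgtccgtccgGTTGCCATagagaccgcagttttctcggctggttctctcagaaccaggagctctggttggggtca

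The other motile cilium genes had smaller changes. Of 25 tektin and axoneme genes 17 were measured and 15 had a change at both times. Of these 1 was 2-fold lower at both, against 1.13% of all genes. Their median change was -0.08 at ZT2, and it was -0.15 at ZT14. The axoneme-associated gene Cfap126 had -0.21 and 0.02, and the tektin Tekt4 had 0.14 and 0.04. Dnah5, a heavy chain of the outer dynein arm chosen here after its values were seen, had -0.97 and -2.06. Markers of multiciliated epithelium had medians of -0.49 (ZT2) and -0.29 (ZT14) over 10 measured of 12, with Sntn dim on all 4 arrays. Their summed signal was 22.8 after vancomycin and 24.6 after saline at ZT2, and 47.2 after vancomycin and 40.1 after saline at ZT14. Mcidas alone, a regulator of multiciliated cells, made up 19.2 after vancomycin and 19.5 after saline at ZT2, and 42.2 after vancomycin and 35.1 after saline at ZT14. Of 9 markers with a change at both times, 4 were lower by some amount at both, against 26.4% of all genes, and 0 higher. The part of ciliated cells in the Tekt1 values was not tested.

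Ces1g had a signal of 49.5 after vancomycin at ZT2, against 637 after saline at ZT2. The ZT14 arrays gave Ces1g signals of 42.6 after vancomycin, against 276 after saline. The vancomycin arrays were both low and near each other, and the saline arrays both high but unequal. The change was -3.51 at ZT2 and -2.63 at ZT14, or 11.4-fold and 6.19-fold lower. The only probe, for NM_021456, lies at chr8:95826722-95826781 on the minus strand of mm9. Ces1g has close paralogs in tandem, and its probe shared no run of 15 bases with any other probe on the array, although binding of paralog RNA was not tested.

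The Ces1g promoter, at chr8:93337160-93337459 on the minus strand of GRCm38.p6 in RefSeq, is printed for a D-box, the element bound by the PAR bZIP factors of the circadian system. The letters searched were TTATGNAA on both strands. The match, in capitals, is TTATGTAA and starts 232 bases before the start site. Of all promoters 3.38% hold a match, and of the 8 genes Ces1g and Synpr do. A further Synpr promoter, at chr14:13284530-13284829, holds no match. The E-box CACGTG, the element of the core clock, stands in 7.15% of all promoters and in 0 of the 10 promoters of these genes.
Ces1g: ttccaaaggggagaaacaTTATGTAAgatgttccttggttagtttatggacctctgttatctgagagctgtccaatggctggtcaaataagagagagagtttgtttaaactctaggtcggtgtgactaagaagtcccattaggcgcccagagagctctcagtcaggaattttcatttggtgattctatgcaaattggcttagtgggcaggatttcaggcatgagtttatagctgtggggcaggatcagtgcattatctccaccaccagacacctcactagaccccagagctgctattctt

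Among other carboxylesterases, 12 of 19 were measured and 11 had a change at both times. Ces1a, a paralog named after its values were seen, was above background with saline only and had bounds of -0.10 and -2.90. None was 2-fold lower at both times, although 6 of the 11 were lower by some amount at both, against 26.4% of all genes. The 3 with the highest signal were Ces2c, with -0.21 at ZT2 and -0.42 at ZT14, Ces1f, with -0.39 and -0.31, and Ces2b, with -0.24 and -0.63. All 3 hydrolyse esters of lipids or drugs, as Ces1g does.

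Slco1b2 had a signal of 17.2 after vancomycin at ZT2, against 112 after saline at ZT2. At ZT14 it had 18.8 after vancomycin, against 164 after saline. Both vancomycin values were low and near the lowest signal well above background of their arrays, 11.04 and 13.54, and both saline values were higher without overlap. The change was -2.53 at ZT2 and -3.07 at ZT14, or 5.77-fold and 8.37-fold lower. This probe reads NM_020495 at chr6:141634476-141634535 on the plus strand of mm9. A second probe, for ENSMUST00000162675 at chr6:141605178-141605237, was dim on all 4 arrays, with signals of 2.38 and 3.0 after vancomycin and 2.27 and 2.48 after saline at ZT2 and ZT14. The second probe therefore gives no change to set beside the first.

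The Slco1b2 promoter, at chr6:141629268-141629567 on the plus strand of GRCm38.p6 in RefSeq, is printed for 2 matches in capitals. The core GTTAAT of the site of HNF1, a factor of liver and kidney tubule cells, starts 66 bases before the start site, and 7.1% of all promoters hold it. The STAT site, searched as TTCNNNGAA, reads TTCTGAGAA and starts 206 bases before, and 8.3% of all promoters hold one. Of the 10 promoters, 1 holds each.
Slco1b2: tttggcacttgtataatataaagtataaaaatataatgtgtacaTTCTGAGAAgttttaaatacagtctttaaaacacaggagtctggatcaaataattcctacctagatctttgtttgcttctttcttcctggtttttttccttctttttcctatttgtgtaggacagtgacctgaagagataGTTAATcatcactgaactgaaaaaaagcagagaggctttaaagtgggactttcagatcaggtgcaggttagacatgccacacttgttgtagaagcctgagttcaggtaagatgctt

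Of 14 other SLCO organic anion transporters 9 were measured and 8 had a change at both times, with 0 of them 2-fold lower or higher at both. Slco3a1, a widely expressed member, had 0.05 at ZT2 and -0.29 at ZT14. Slco1a6 and Slco1a1, both known from the kidney tubule, had -0.60 and -0.04, and -0.64 and -0.30. The hepatocyte markers, read because Ces1g and Slco1b2 are liver genes, had medians of 0.04 (ZT2) and -0.28 (ZT14) over 13 measured of 16. Apoa1, Ahsg and Cps1 were dim on all 4 arrays. The summed hepatocyte signal was 152 after vancomycin and 132 after saline at ZT2, and 128 after vancomycin and 134 after saline at ZT14. Most of that sum was Hnf4a. It had 139.8 after vancomycin and 120.6 after saline at ZT2, and 115.2 after vancomycin and 115.1 after saline at ZT14. One marker, the cytochrome P450 gene Cyp2c29, was 2-fold lower at both times, with -1.66 and -1.22, while the albumin gene Alb had 1.77 and -0.11. Both were named after their values were seen. Of 12 markers with a change at both times, 5 were lower by some amount at both, against 26.4% of all genes, and 1 higher. The part of hepatocytes in these values was not tested.

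Slc37a1 had a signal of 207 after vancomycin at ZT2, against 1125 after saline at ZT2. After injection at ZT14, Slc37a1 had 294 after vancomycin, against 1428 after saline. The arrays of each treatment lay close together and the treatments did not overlap. The change was -2.27 at ZT2 and -2.21 at ZT14, or 4.82-fold and 4.64-fold lower, the most even pair of changes among the 8 genes. This probe reads NM_153062 at chr17:31487235-31487294 on the plus strand of mm9. The second probe under this name, for BC129870 at chr17:31465095-31465154, lies on the minus strand. It was dim on all 4 arrays, with signals of 2.51 and 3.11 after vancomycin and 2.35 and 3.53 after saline at ZT2 and ZT14. The first 30 bases of both are printed because they read opposite strands.
Slc37a1 NM_153062: agtccacacccagccatcatgaaggcccat
Slc37a1 BC129870: tgtacgtggtttgcttctgcagtctaaatc

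The Slc37a1 promoter, at chr17:31295974-31296273 on the plus strand of GRCm38.p6 in RefSeq, is printed for the core of an interferon response element, searched on both strands as GAAA, any 2 bases and GAAA. The match GAAAGTGAAA, in capitals, starts 37 bases before the start site. Of all promoters 3.44% hold such a core, and 1 of the 10 does.
Slc37a1: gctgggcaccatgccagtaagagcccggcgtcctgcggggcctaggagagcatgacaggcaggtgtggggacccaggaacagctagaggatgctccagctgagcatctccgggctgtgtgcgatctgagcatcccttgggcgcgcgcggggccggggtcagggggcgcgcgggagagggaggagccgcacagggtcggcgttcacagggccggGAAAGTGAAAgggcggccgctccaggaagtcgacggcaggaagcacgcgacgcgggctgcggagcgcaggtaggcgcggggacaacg

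All 6 motifs were chosen after the promoters had been viewed, and a match describes the letters in the window and nothing more.

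The enzymes and exchangers that handle the same sugar phosphate stayed near their saline levels, with exceptions. All 14 listed genes were measured and 12 had a change at both times, of which 0 were 2-fold lower at both. Gpi1, which interconverts glucose and fructose phosphates, had 0.12 at ZT2 and -0.01 at ZT14. Hk1, a hexokinase, had -0.27 and 0.09. G6pc, the glucose phosphatase of gluconeogenesis, had 1.76 at ZT2 and -0.26 at ZT14. Slc37a2, an exchanger of the same family, was at least 2.19-fold higher with vancomycin at ZT2 and at least 2.04-fold at ZT14. It was well above background on both vancomycin arrays and on neither saline array.

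Il18bp had a signal of 1159 after vancomycin at ZT2, against 6443 after saline at ZT2. At ZT14 it had 1041 after vancomycin, against 4195 after saline. The vancomycin arrays were low and close together, and the saline arrays were high without overlap. The change was -2.30 at ZT2 and -1.94 at ZT14, or 4.92-fold and 3.85-fold lower. Even the vancomycin signals were far above the dim end of the array, so this fall does not rest on values near background.

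A second Il18bp probe gave similar changes with vancomycin. It had signals of 449 after vancomycin and 2751 after saline at ZT2, and 612 after vancomycin and 2257 after saline at ZT14. Its change was -2.44 at ZT2 and -1.82 at ZT14, or 5.42-fold and 3.53-fold lower. Both probes read NM_010531 on the minus strand of mm9, the first at chr7:109164100-109164159 and the second at chr7:109164573-109164632. Il18bp was the 1 gene of the 8 for which 2 probes were well above background on all 4 arrays, and the pair differed by 0.14 at ZT2 and 0.13 at ZT14. The second probe is printed whole and the first by its first 30 bases.
Il18bp second probe: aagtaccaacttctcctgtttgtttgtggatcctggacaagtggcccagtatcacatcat
Il18bp first probe: aaactcaagcttcacttctaccctagatta

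In the interleukin-18 axis, 17 of 21 other genes were measured, all at both times. Nlrc4, an inflammasome sensor upstream of interleukin-18 processing, was the 1 gene 2-fold lower at both times, with -1.21 at ZT2 and -2.13 at ZT14. The cytokine Il18 itself, named after its values were seen, had -0.16 and 0.10. The interferon-gamma receptor chains Ifngr1 and Ifngr2 had -0.21 and -0.05, and -0.40 and -0.28. Myd88, the adaptor of the interleukin-18 receptor, had 0.03 and 0.27. Of the 17 genes, 11 were lower by some amount at both times, against 26.4% of all genes.

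Klhl6 had a signal of 36.9 after vancomycin at ZT2, against 408 after saline at ZT2. Klhl6 at ZT14 had 125 after vancomycin, against 465 after saline. The saline arrays were close together and the vancomycin arrays were lower without overlap, the ZT2 one by the wider gap. The change was -3.29 at ZT2 and -1.83 at ZT14, or 9.79-fold and 3.56-fold lower. The only probe lies at chr16:19948180-19948239 on the minus strand of mm9 and is printed because every Klhl6 value rests on it.
Klhl6: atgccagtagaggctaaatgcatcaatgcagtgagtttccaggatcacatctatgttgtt

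Members of the KLHL family hand substrates to cullin-based ubiquitin ligases. Of 37 other members 31 were measured and 28 had a change at both times, with 0 of them 2-fold lower at both. The family median was 0.10 at ZT2, and it was 0.08 at ZT14. The 3 with the highest signal were Klhl9, with 0.10 and 0.01, Klhl22, with -0.09 and -0.35, and Klhl24, with -0.06 and -0.05.

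Klhl6 is known from B cells, so their markers were read beside it. Of 14 B cell markers 10 were measured, 8 had a change at both times, and 2 of these were 2-fold lower at both: Cd79b, a signalling chain of the B cell antigen receptor, with -1.69 and -1.13, and the coactivator Pou2af1, with -1.96 and -1.27, both named after their values were seen. The defining markers Cd79a, Blk and Fcrla were dim on all 4 arrays. The median change of the measured markers was -0.34 (ZT2) and -0.42 (ZT14), and 6 of the 8 were lower by some amount at both times, against 26.4% of all genes. The summed B cell signal was 2.96 after vancomycin and 2.99 after saline at ZT2, and 2.77 after vancomycin and 3.39 after saline at ZT14. Of that sum Cd22 made up 1.89 after vancomycin and 1.34 after saline at ZT2. Macrophage markers had medians of -0.45 (ZT2) and -0.46 (ZT14), with 11 of 14 lower by some amount at both times, against 26.4% of all genes. Their summed signal was 58.8 after vancomycin and 59.5 after saline at ZT2, and 70.4 after vancomycin and 74.3 after saline at ZT14. Most of that sum was Itgam and Csf1r. Itgam had 23.7 after vancomycin and 22.6 after saline at ZT2, and 38.8 and 34.8 at ZT14. Csf1r had 19.3 after vancomycin and 14.1 after saline at ZT2, and 17.9 and 20.5 at ZT14. Endothelial markers had -0.33 and -0.30, with 12 of the 12 that had a change at both times lower by some amount, against the same 26.4%, and summed to 39.7 after vancomycin and 50.7 after saline at ZT2 and 49.7 after vancomycin and 62.8 after saline at ZT14. The part of these cell types in the Klhl6 and Il18bp values was not tested.

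**Figure D3:**
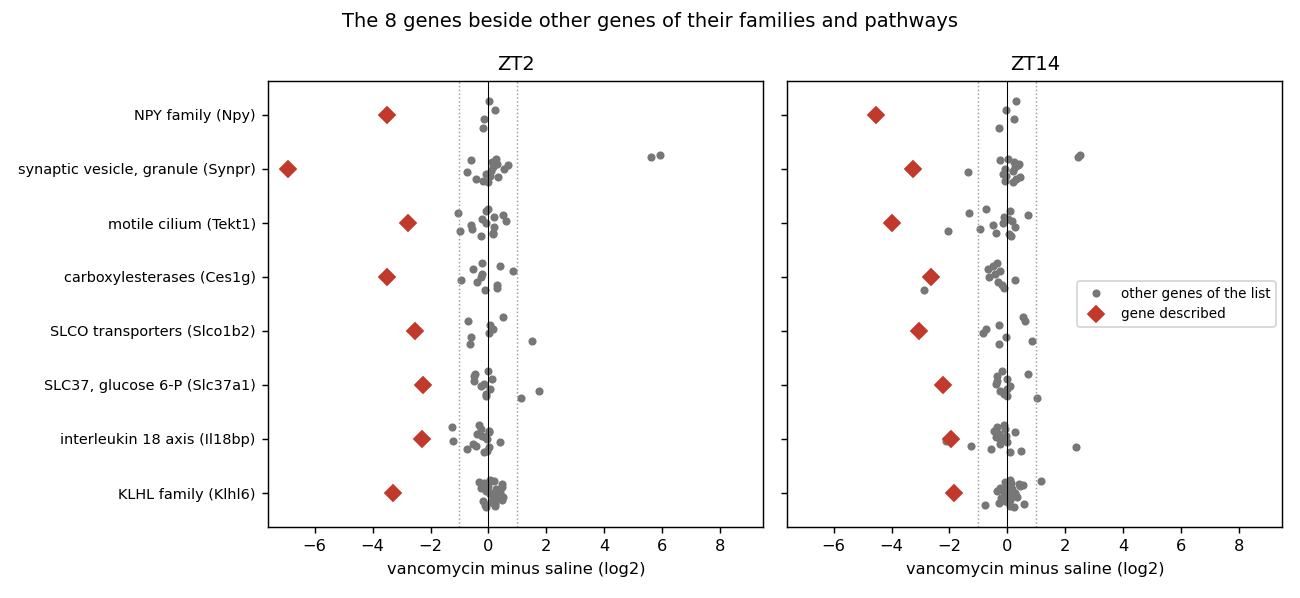
Change with vancomycin (x axis, log2) of each of the 8 genes (red diamonds) and of the other measured genes of its family or pathway (grey points), at ZT2 and at ZT14. Genes dim on 1 array of a pair are drawn at their bound. Most grey points lie between the dotted 2-fold lines, and Chga and Chgb stand out to the right in the synaptic vesicle and granule row.

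Across the 8 related lists, which hold 165 other genes, 124 were measured and 112 had a change at both times. Of the 112, 2 were 2-fold lower at both times, among them Nlrc4, which is 1.79% against 1.13% of all genes. With background correction by normexp, which models background in place of subtracting it, this count was 0. Another 3 were 2-fold higher at both times, Chga, Chgb and Slc37a2, against 0.281% of all genes. Lower by some amount at both times were 42, or 37.5%, against 26.4% of all genes. With treatment and injection time as additive terms in limma, 0.0% of 24638 genes passed for vancomycin after Benjamini-Hochberg adjustment, and so 0 of the related genes did. At an unadjusted p under 0.05, 9 of 124 related genes were lower and 6 higher, against 5.14% lower and 3.33% higher of all genes. That fit has 1 residual degree of freedom. Its p-values weigh the mean change against how far the changes at the 2 times differed, moderated over all genes. They do not measure the spread between animals.

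All 13 probes can be set side by side by detection. Of the 13, 9 were well above background on all 4 arrays, 1 on both saline arrays only, and 3 on none. The 9 probes that were above background on all 4 arrays were each 2-fold lower with vancomycin at both times. All of them but the second Il18bp probe gave the values that chose the genes, so that count was set by the choice. No probe was well above background on a vancomycin array alone, which the choice of genes low with vancomycin also favoured. For the 8 genes, the scanner software's own signal errors correspond to an error of 0.204 to 0.319 on a log2 change, which covers the reading of the array and not the spread between animals.

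**Figure D4:**
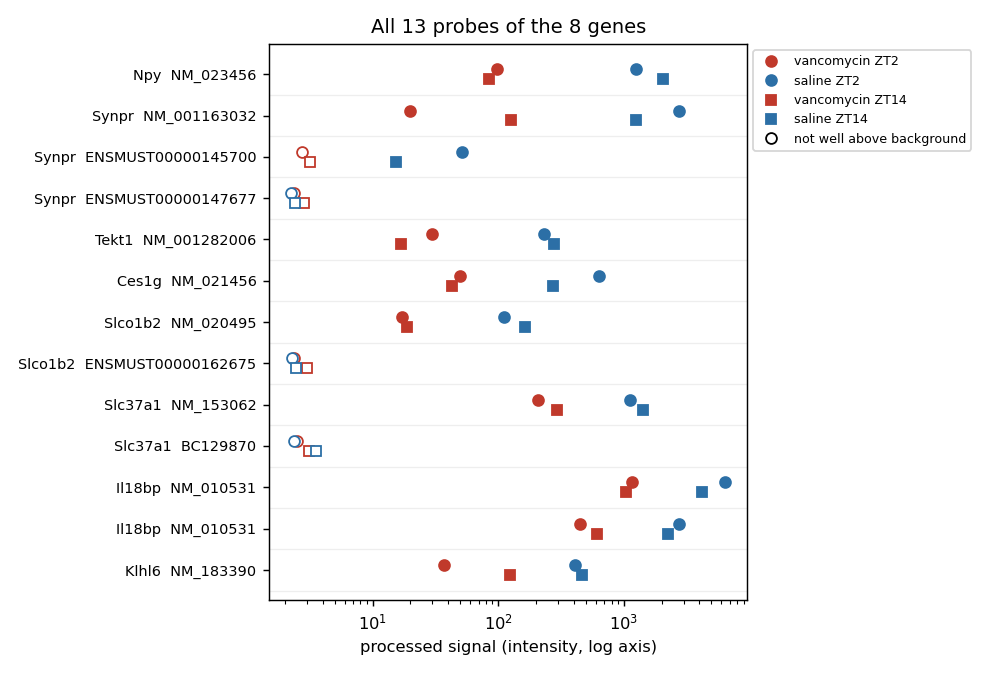
Processed signal (x axis, log scale) of all 13 probes of the 8 genes, with circles for ZT2, squares for ZT14, red for vancomycin and blue for saline. Open symbols are not well above background: 3 probes are open on all 4 arrays, and the Synpr probe for ENSMUST00000145700 is open on the vancomycin arrays and filled on the saline arrays.

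The 2 times differed in the size of the fall for some of the genes. The ZT14 change minus the ZT2 change was -1.02 for Npy, -1.20 for Tekt1 and -0.54 for Slco1b2, so their fall was deeper at ZT14. It was 3.68 for Synpr, 1.46 for Klhl6, 0.88 for Ces1g and 0.36 for Il18bp, whose fall was shallower at ZT14. For Slc37a1 it was 0.06. With 1 array per group these differences have no test.

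Injection time itself was not used to choose the genes and could be tested over both treatments, although it cannot be told apart from slide. With 1 residual degree of freedom, the p-values weigh the time change against how far it differed between the 2 treatments, moderated over all genes. They do not measure the spread between animals. ZT14 minus ZT2, with treatment in the limma fit, was past the threshold for 0 of the 8 genes and for 0.0% of 24638 genes. Unadjusted p-values were under 0.05 for 2 of the 8 genes and for 27.2% of all genes. Ces1g had a change of -1.07 (SE 0.29, limma adjusted p = 0.169), and the difference was -0.63 with vancomycin and -1.51 with saline. Il18bp had a change of -0.74 (SE 0.17, limma adjusted p = 0.141), and the difference was -0.57 with vancomycin and -0.92 with saline. Those values rest on the first Il18bp probe, and the second had 0.03 with vancomycin and -0.59 with saline. Under normexp and under a robust trended prior the first Il18bp probe passed, with limma adjusted p = 0.0375 and 0.0307, where 2994 and 3284 of all genes passed too. Adjusted p-values for the other 6 genes lay between 0.367 and 0.957. Within treatments, Npy had -0.62 with vancomycin and 0.40 with saline, and Tekt1 had -1.23 and -0.03. Klhl6 had 1.34 with vancomycin and -0.12 with saline. Synpr had 2.25 with vancomycin and -1.42 with saline, which are opposite directions, and normexp and the mean over probes turned the sign of its fitted value. Slc37a1 had 0.10 with vancomycin and 0.04 with saline, and Slco1b2 had -0.29 and 0.25.

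The size of the falls depended on how the dim end of the array was treated, and their direction did not. With normexp the Slco1b2 change was -1.02 at ZT2 and -1.38 at ZT14, and that of Tekt1 was -1.61 and -2.13. Ces1g had -2.45 and -1.61, Klhl6 had -2.10 at ZT2, Npy had -3.85 at ZT14 and Synpr had -4.91 at ZT2. With a pseudocount of 16 added to each signal, Slco1b2 had -1.78 and -2.31, Tekt1 had -3.11 at ZT14 and Synpr had -6.10 at ZT2. With the mean over the probes of a gene, Synpr had -5.50 at ZT2. Those are the values that moved by over 1.5 times. The changes of Il18bp and Slc37a1, whose vancomycin signals were far from background, moved by less under every setting run.

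**Figure D5:**
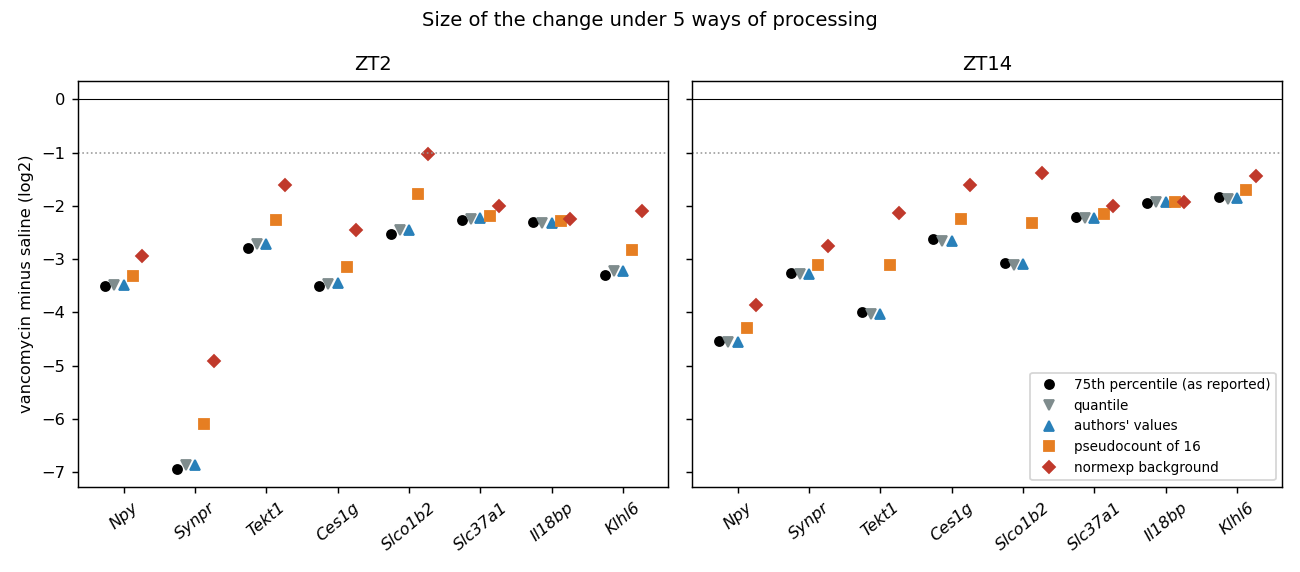
Change with vancomycin (y axis, log2) of each of the 8 genes at ZT2 and ZT14 under 5 ways of processing the same arrays, with the dotted line at 2-fold. Every symbol lies below the line, and normexp (red diamonds) lies nearest to it for Slco1b2, at -1.02 at ZT2.

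For each gene, genes among the 3 whose profile over the 4 arrays lay nearest are given by Euclidean distance between centred log2 profiles, among 15499 genes with an ordinary symbol. Distances rest on 4 arrays and describe likeness only. Nearest to Npy was Tgfb2, a transforming growth factor ligand, at 0.39, followed by Oca2 and Ppp1r3g at 1.57 each. Near Synpr were Irs4 at 2.31 and Tgfb2 at 2.63. Nearest to Tekt1 were Tgfb2 at 1.05, Lta and Oca2. Nearest to Ces1g were Ppp1r3g, a glycogen-targeting phosphatase subunit, at 0.673, Oca2 and Clec10a. Nearest to Slco1b2 were Oca2 at 0.749, Btla and Nkain2. Nearest to Slc37a1 were Nkain2 at 0.258, Gxylt2 and Itgbl1. Nearest to Il18bp were Mapk10 at 0.338, Iapp and Opn3. Near Klhl6 were Runx2os1 at 0.429 and Ighv1-33 at 0.621. Of the genes named here, Tgfb2, Oca2, Ppp1r3g and Nkain2 recur, each within the first 3 of more than 1 of the 8 genes.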

How the data were processed

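Total RNA was labelled with a low-input kit and hybridised to Agilent arrays, per the labels' protocols. Per the file headers, the deposited processed signals are intensities from Feature Extraction 10.7.1.1, with background subtracted and no normalization between arrays. Version 9.5.1.1 is given in the submitters' processing notes. Flags for spots well above background are a deposited yes or no value. Spots flagged as outliers were left out, spots of a probe averaged, and log2 signals centred on the 75th percentile of each array. Probes entered with 50% or more of their spots well above background on 1 array or more, and the brightest kept probe stood for its gene. A dim signal was raised to the lowest signal well above background on its array, which gives "at least". The table of the authors' deposited values, intensities with equal quartiles on the 4 arrays, was an alternative only. limma 3.58.1 in R 4.3.3 modelled treatment plus injection time, with Benjamini-Hochberg adjustment over 24638 genes (adjusted p under 0.05), checked on simulated data. Other alternatives were median and quantile scaling, normexp with an offset of 50, a pseudocount of 16, other filters, probe means, the time term left out and a robust trended prior. Promoters come from RefSeq (GRCm38.p6); probe coordinates are mm9, per the file headers. Arrays give no read depth, and their number, 1 per group, limits the precision. Named genes were the 8 genes, from each related list those past 2-fold in 1 direction at both times and the 3 brightest, and the 3 nearest profiles of each gene. The 8 genes and all lists were chosen with earlier results of these data known. Some genes that this rule names are not reported here.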

Additional observations from a re-analysis of the deposited data

Results flagged for a closer look

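Synpr, the synaptic vesicle gene, went in opposite directions between injection times in the 2 treatments: ZT14 minus ZT2 was 2.25 in log2 units with vancomycin and -1.42 with saline. The difference between the 2 was not tested, since each rests on 1 array a group and the fit with that term has no residual degrees of freedom. The vancomycin value at ZT2 was a signal of 19.8, and the lowest one that was well above background there was 11.04.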

How the results depend on the processing

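All 8 genes stayed 2-fold lower with vancomycin at both times under every setting run. The 9 probes above background on all 4 arrays did so under the 5 alternatives run for probes (median and quantile scaling, normexp, the authors' values and the pseudocount). Of 128 alternative values of single changes, 14 moved by over 1.5 times. Many of the 128 could not move: the other filters kept the same probe for each gene, and probe means altered only Synpr and Il18bp. Genes 2-fold lower at both times over the whole array numbered 254, against 88 with normexp and 154 with a pseudocount of 16. Related genes lower at both times numbered 2, against 0 with normexp and 1 each with quantile scaling, the authors' values and the pseudocount. For ZT14 minus ZT2 the count of the 8 genes past the threshold was 0, against 1 with normexp and 1 with a robust trended prior: Il18bp, with limma adjusted p = 0.0375 and 0.0307, where its other settings reached 0.706. Both values rest on the first Il18bp probe, and over all genes those settings gave 2994 and 3284 genes. The direction of ZT14 minus ZT2 turned for Slc37a1 with median centring (-0.065) and for Synpr with normexp (-0.27) and with the mean over probes (-0.36). The causes were not tested. The injection time term of the fit already blocks by slide, and the labels carry no replicate numbers for another pairing. Leaving out a replicate was likewise not possible.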
